A study of Mus musculus with 10 samples.

Results

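The 45 interferon-stimulated genes described here were chosen by name and matched by identical symbol to the deposited table of 56748 genes. Every name matched exactly 1 row, and all 45 rows passed the filter on low counts. Such genes are the output of the type I interferon pathway. Interferon binds a receptor made of the IFNAR1 and IFNAR2 chains, the attached kinases JAK1 and TYK2 phosphorylate STAT2, and a complex that holds STAT2 and IRF9 binds a response element in the promoters of its targets. The products detect viral nucleic acid, degrade or sequester viral RNA, block translation or release of virus and tune the pathway itself, and microglia, the resident macrophages of the brain, are among the cells that answer to interferon.

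RNA-seq was run on 5 samples of microglia, each of 400000 cells sorted for CD11b, and on 5 samples of hemi brains with no cell type isolated (bulk brain). Young male mice of the C57BL/6 strain were used, with no transgene, allele or treatment named in the labels, and 1 batch value covers all 10 samples. Whether samples within a group are separate animals is not stated, and p-values therefore rest on a spread that may be technical. CD11b, the product of Itgam, is also carried by border-associated macrophages, monocytes and neutrophils. No dissociation or sort is named for bulk brain.

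Libraries held 25087489 to 28514509 counts in microglia and 25845049 to 34709215 in bulk brain, and levels are given as CPM, the count scaled by library total and composition. A gene with no count could have held up to 3 counts, or 0.0821 to 0.125 CPM. Such limits cover counting error only. Summed over 10 microglia marker genes, levels were 34123 to 35430.3 CPM in microglia and 248 to 279 CPM in bulk brain. Among them, Itgam, the gene of the sort marker, stood at 498 ± 18.0 and 4.65 ± 1.24 CPM and the microglial receptor gene P2ry12 at 3648 ± 135 and 20.8 ± 4.01 CPM (SD, n = 5 each). Border-associated macrophage genes summed to 499 to 647 and 11.1 to 12.9 CPM, neutrophil genes to 6.05 to 14.4 and 0.303 to 0.981 CPM, monocyte genes to 24.4 to 36.3 and 10.02 to 34.4 CPM, and neuronal genes to 4.39 to 6.98 and 4696 to 5140.4 CPM. Immediate early and dissociation genes summed to 22910.5 to 27571 CPM in microglia and 326 to 516 CPM in bulk brain. All 6 of the neutrophil genes and all 5 of the monocyte genes had counts in microglia, but so had all 8 lymphocyte and all 7 neuronal marker genes. The part of other cell types and of dissociation in the results below was not tested. Bulk brain replicates 1 and 2 stood apart from replicates 3 to 5 over all genes, with a mean chi-square per degree of freedom of 111 to 298 between those sets and 5.58 to 8.01 among replicates 3 to 5. Replicates 1 and 2 also differed from each other, at 48.9, and are not a uniform set.

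Interferon-stimulated genes were mostly higher in sorted microglia than in bulk brain, but far less so than genes that mark microglia. Of the 45, 41 were higher, 1 was lower and 3 did not pass the threshold (edgeR quasi-likelihood test, Benjamini-Hochberg adjusted p under 0.05), where 37.2% of the 18969 genes tested were higher and 43.9% lower. At least 2-fold higher were 39 of the 45, against 27.8% of all genes. In 38 the lowest microglia library lay above the highest bulk brain library (all genes 34.2%), in 1 it was the reverse (all genes 40.5%), and in 6 the groups overlapped. The median log2 difference (microglia minus bulk brain) was 3.21 over the 45 genes and -0.14 over all genes tested. The 10 microglia markers had a median of 7.16 and a range of 5.46 to 7.55. Only 5 interferon-stimulated genes, Slfn8, Ifi207, Ifi204, Mx1 and Parp14, reached that range. Put as a share, bulk brain held a median of 10.8% of the microglial level of interferon-stimulated genes and 0.698% of that of the markers. The markers were picked as genes that mark microglia, and Itgam among them encodes the sort marker. Their larger difference was therefore set in part by that choice. In bulk tissue, fewer cells of a type and less RNA per cell cannot be told apart.

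**Figure D1:**
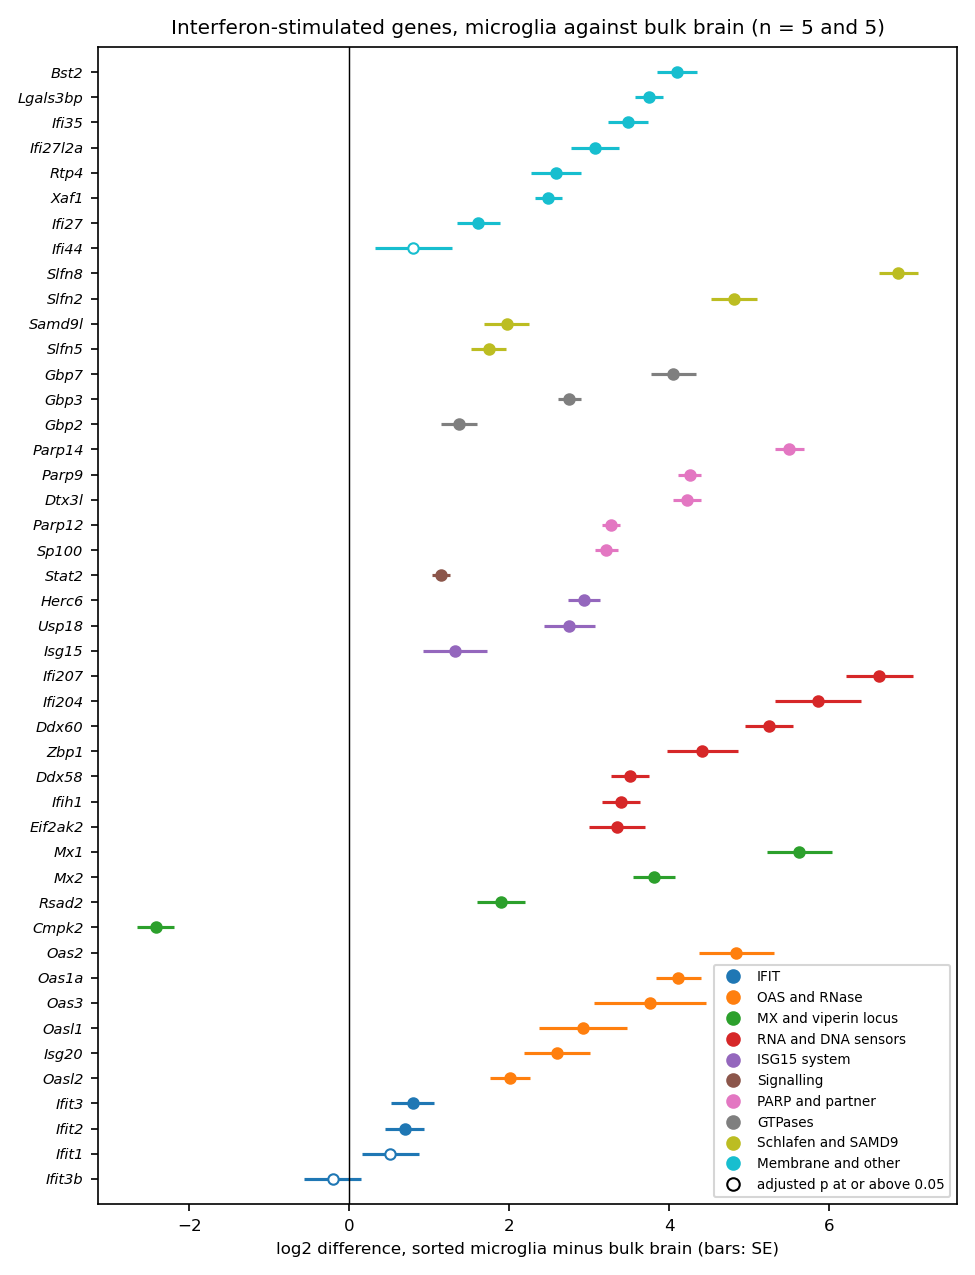
Log2 difference between sorted microglia and bulk brain for the 45 interferon-stimulated genes, coloured by role, with SE bars and open symbols where the adjusted p missed the threshold. Slfn8 lies farthest to the right at 6.86, the 4 IFIT genes lie near 0, and Cmpk2 lies alone on the left at -2.42.

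By position, 26 of the 45 genes lay within 1 Mb of another one, in 10 clusters. The IFIT genes spanned 99.3 kb of chromosome 19 (34528094 to 34627409, GRCm39), and clusters of 3 genes held the OAS, Schlafen, GBP and PARP9 loci. Neighbours did not always share a pattern: the Rsad2 and Cmpk2 pair differed in direction, and within the GBP cluster Gbp2 differed by 1.37 and Gbp7 by 4.05.

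Promoters were searched for the interferon-stimulated response element, the binding site of the complex that holds STAT2 and IRF9, because it is the sequence through which type I interferon acts. The RefSeq promoter table (GRCm38.p6, another build than that of the counts) held 34 of the 45 genes, matched by symbol, with 250 bases before and 50 after each start. The element, written as GAAA, any 2 bases and GAAA and sought on both strands, was found for 19 of 34 genes (55.9%), against 3.99% of 27025 genes in the table. The gamma-activated site TTCNNNGAA, which reads the same on both strands, was found for 7 (20.6%) against 9.55%. The response element was also found for 20 of 44 (45.5%) of the further interferon-stimulated genes listed below and for 7 of 32 (21.9%) of the pathway genes. A match is a run of letters and not a shown binding site. The 250 bases before the start are shown for the 6 genes with an element there that had the highest TPM in microglia, 5′ to 3′ along the gene, with the element in capitals (TTTC, any 2 bases and TTTC where it lies on the other strand). They are Bst2 chr8:71537473-71537722, minus strand; Slfn8 chr11:83020811-83021060, minus strand; Gbp7 chr3:142530086-142530335, plus strand; Stat2 chr10:128270248-128270497, plus strand; Gbp3 chr3:142559794-142560043, plus strand; and Ifit3 chr19:34583279-34583528, plus strand.
Bst2: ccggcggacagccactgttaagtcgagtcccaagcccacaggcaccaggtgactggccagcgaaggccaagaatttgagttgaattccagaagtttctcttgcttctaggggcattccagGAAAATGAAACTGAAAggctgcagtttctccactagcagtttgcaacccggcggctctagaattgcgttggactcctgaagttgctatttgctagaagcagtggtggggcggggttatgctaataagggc
Slfn8: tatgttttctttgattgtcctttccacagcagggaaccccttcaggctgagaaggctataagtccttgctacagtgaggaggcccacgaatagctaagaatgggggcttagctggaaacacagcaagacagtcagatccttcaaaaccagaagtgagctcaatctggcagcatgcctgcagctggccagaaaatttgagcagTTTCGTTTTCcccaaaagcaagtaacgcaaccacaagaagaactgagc
Gbp7: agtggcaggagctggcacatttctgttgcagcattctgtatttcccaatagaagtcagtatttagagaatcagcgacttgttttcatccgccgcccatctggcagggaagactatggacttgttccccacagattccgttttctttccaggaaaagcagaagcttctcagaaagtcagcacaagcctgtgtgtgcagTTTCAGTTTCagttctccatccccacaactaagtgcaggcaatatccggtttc
Stat2: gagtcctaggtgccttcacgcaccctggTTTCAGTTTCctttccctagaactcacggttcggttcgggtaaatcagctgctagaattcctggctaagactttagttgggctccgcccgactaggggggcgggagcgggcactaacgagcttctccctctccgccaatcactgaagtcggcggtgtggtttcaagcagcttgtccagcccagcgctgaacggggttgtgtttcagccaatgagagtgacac
Gbp3: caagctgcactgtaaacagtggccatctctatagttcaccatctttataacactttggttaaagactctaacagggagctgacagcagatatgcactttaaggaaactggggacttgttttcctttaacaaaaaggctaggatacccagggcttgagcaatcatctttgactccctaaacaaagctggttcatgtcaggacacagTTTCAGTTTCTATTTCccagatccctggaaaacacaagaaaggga
Ifit3: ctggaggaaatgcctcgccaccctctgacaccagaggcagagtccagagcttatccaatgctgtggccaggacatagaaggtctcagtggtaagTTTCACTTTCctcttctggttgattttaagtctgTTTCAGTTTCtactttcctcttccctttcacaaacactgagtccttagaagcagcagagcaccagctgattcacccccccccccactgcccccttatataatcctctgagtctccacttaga

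In Bst2, the runs that start 130 and 124 bases before the gene's start overlap in a single tract, and Gbp3 has overlapping runs at 45 and 39 bases. Ifit3 carries separate ones at 156 and 122 bases. Single runs begin 48 bases before the start shown for Slfn8, 53 bases before that of Gbp7 and 222 bases before that of Stat2. Slfn8 and Gbp3 each have 2 starts in the promoter table. At its other start the Slfn8 run lies at 136 bases, while the 250 bases before the other Gbp3 start hold no such run. The genes shown, whose elements differ in number and position, also differed widely in the comparison with tissue, from 0.79 for Ifit3 to 6.86 for Slfn8 (log2).

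The Schlafen genes, which encode putative RNA-binding proteins that restrain viral translation and immune cell growth, held the gene with the largest difference. Slfn8 (ENSMUSG00000035208, chromosome 11, 82892984 to 82911636, minus strand, GRCm39) stood at 112, 125, 145, 133 and 129.6 CPM in microglia replicates 1 to 5 and at 1.07, 1.30, 1.71, 0.594 and 0.908 CPM in bulk brain replicates 1 to 5. Each microglia library lay far above each bulk brain library, and the means were 129 ± 12.3 and 1.12 ± 0.420 CPM (SD, n = 5 each), with a log2 difference of 6.86 ± 0.25 (SE; edgeR adjusted p = 2.5e-10). Slfn2 (4.81), Slfn5 (1.74) and the related Samd9l (1.97), an antiviral and growth-restraining gene, were higher as well. Reads of the closely related Schlafen genes may be shared between them.

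All 7 genes for sensors of viral nucleic acid were higher in microglia (all genes 37.2%), with log2 differences of 3.34 to 6.63. The largest belonged to Ifi207 and Ifi204, members of the PYHIN family of DNA-binding proteins. Ifi207 was measured at 15.8, 17.2, 21.0, 21.4 and 14.9 CPM in the microglia libraries and at 0.0274, 0.231, 0.255, 0.0594 and 0.330 CPM in bulk brain, without overlap (log2 difference 6.63 ± 0.42, edgeR adjusted p = 3.0e-08). Ifi204 stood at 24.4, 24.1, 40.2, 29.5 and 21.5 CPM against 0.548, 0.837, 0.146, 0.802 and 0.0275 CPM (5.86 ± 0.54), also without overlap, a difference that was 6.48 with limma-voom and 5.26 against bulk brain replicates 1 and 2 alone. These neighbouring genes are paralogs whose reads may be split between copies.

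Ddx58 and Ifih1 encode RIG-I and MDA5, the cytosolic receptors for short and long double-stranded RNA. Ddx58 stood at 59.8, 54.5, 77.8, 62.0 and 57.7 CPM in microglia and at 6.49, 2.83, 7.17, 4.66 and 6.22 CPM in bulk brain (log2 difference 3.51 ± 0.24, edgeR adjusted p = 5.4e-08). Ifih1 gave 45.6, 48.8, 54.1, 48.0 and 41.2 CPM against 3.75, 2.34, 5.86, 4.99 and 5.67 CPM (3.40 ± 0.23). The 2 groups did not overlap for either gene. Eif2ak2 encodes PKR, the kinase that stops translation on sensing double-stranded RNA, and stood at 57.0, 71.7, 75.0, 62.3 and 56.0 CPM in microglia (mean 64.4 ± 8.57 CPM) against a mean of 6.34 ± 3.27 CPM (3.34 ± 0.35). In the tissue libraries it ran at 3.29, 2.51, 7.24, 9.33 and 9.36 CPM, lower in replicates 1 and 2 than in the others. Against replicates 3 to 5 alone its log2 difference was 2.73, and against replicates 1 and 2 alone it was 4.38. Ddx60 (5.25), a helicase linked to RIG-I signalling, and Zbp1 (4.41), a sensor of Z-form nucleic acid that can trigger cell death, completed the group.

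Parp9, Parp12 and Parp14 encode ADP-ribosyltransferase family members, Dtx3l encodes the ubiquitin ligase that pairs with PARP9, and Sp100 a nuclear body protein. All 5 were higher (all genes 37.2%), by 3.21 to 5.50 on the log2 scale. Parp14 (ENSMUSG00000034422, chromosome 16, 35653244 to 35691914, minus strand, GRCm39) stood at 174, 185, 255, 192 and 170.0 CPM in microglia against 3.48, 3.95, 3.93, 5.61 and 4.54 CPM in bulk brain (log2 difference 5.50 ± 0.18, edgeR adjusted p = 1.3e-10). Parp12 gave 102, 110.1, 116, 96.7 and 89.8 CPM against 9.47, 11.5, 10.8, 9.80 and 11.7 CPM (3.27 ± 0.11), again with no overlap. Sp100 differed by 3.21 ± 0.14. Parp9 and Dtx3l lie on opposite strands and overlap by 682 bases, and since the library kit keeps no strand mark, their reads there cannot be told apart. Their log2 differences were 4.26 ± 0.14 and 4.22 ± 0.17.

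The OAS family holds enzymes that make the oligoadenylate messengers that activate RNase L, though not every member has that activity. Its 5 members and the exonuclease gene Isg20 were all higher (all genes 37.2%), with log2 differences of 2.01 (Oasl2) to 4.84 (Oas2). Oas2 stood at 14.2, 14.0, 35.3, 23.3 and 14.0 CPM in microglia and at 1.29, 0.231, 0.837, 0.802 and 0.358 CPM in bulk brain, with replicate 3 highest among microglia and no overlap between groups. Oas3 was low, at 1.55, 1.09, 4.82, 3.70 and 1.42 CPM against 0.329, 0.346, 0.109, 0 and 0.110 CPM, as was Oasl1, at 3.74, 1.75, 5.51, 2.19 and 1.58 CPM against 0.301, 0.0577, 0.582, 0.624 and 0.385 CPM. Both kept the groups apart, and Oas3 had 0 counts in bulk brain replicate 4, where 3 counts would be 0.0891 CPM. Against bulk brain replicates 3 to 5 alone the log2 difference of Oas3 moved from 3.76 to 4.90 and that of Oasl1 from 2.92 to 2.33. Against replicates 1 and 2 alone they moved the other way, to 2.81 and 3.91. Oas1a (4.11) has close copies in the same cluster, and its value is uncertain for that reason.

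Mx1 and Mx2, genes of the family of dynamin-like GTPases, were higher by 5.63 ± 0.40 and 3.81 ± 0.26 on the log2 scale. Mx1 gave 19.9, 18.8, 34.4, 20.3 and 14.4 CPM in microglia and 0.246, 0.346, 0.509, 0.208 and 0.853 CPM in bulk brain (edgeR adjusted p = 8.5e-08). Rsad2 and Cmpk2 are neighbours on chromosome 12 that encode viperin, which makes a chain-terminating nucleotide, and the mitochondrial kinase that supplies its substrate. They differed in direction. Rsad2 was higher in microglia, at 6.64, 5.39, 10.5, 3.74 and 4.34 CPM against 1.29, 2.05, 1.42, 1.66 and 1.79 CPM (log2 difference 1.89 ± 0.30, edgeR adjusted p = 9.9e-05). Cmpk2 (ENSMUSG00000020638, chromosome 12, 26519203 to 26529836, plus strand, GRCm39) stood at 4.77, 4.65, 8.29, 3.02 and 4.59 CPM in microglia and at 27.6, 24.1, 27.8, 26.7 and 29.7 CPM in bulk brain, so that every microglia library lay below every bulk brain library (log2 difference -2.42 ± 0.23, edgeR adjusted p = 1.1e-06). It was the only one of the 45 genes that was lower in microglia, and it was lower under each of the 20 alternative settings run (-2.66 to -2.27).

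The IFIT genes, whose products bind viral RNA that lacks host cap marks, differed little between sorted cells and tissue, by -0.21 to 0.79 on the log2 scale. Ifit1 stood at 3.70, 4.19, 9.60, 4.30 and 2.75 CPM in microglia and at 3.12, 4.85, 2.26, 2.52 and 4.40 CPM in bulk brain. The groups overlapped, since microglia replicates 1, 2, 4 and 5 lay within the range of bulk brain and replicate 3 lay above it (log2 difference 0.51 ± 0.36, edgeR adjusted p = 0.2). Ifit3b gave 2.58, 4.65, 4.97, 2.31 and 1.33 CPM against 4.57, 4.33, 3.35, 3.80 and 2.28 CPM (-0.21 ± 0.35, edgeR adjusted p = 0.597). Ifit2 stood at 14.1, 18.0, 34.6, 15.6 and 16.2 CPM against 10.02, 10.8, 14.8, 12.5 and 12.8 CPM, and Ifit3 at 9.82, 13.3, 24.4, 16.8 and 9.55 CPM against 9.45, 11.2, 7.86, 7.34 and 6.88 CPM. Both were higher in microglia, by 0.69 ± 0.24 and 0.79 ± 0.27 (edgeR adjusted p = 0.0202 and 0.0166), but their groups overlapped too. The call of Ifit2 was lost without bulk brain replicate 1, 2, 4 or 5 (adjusted p = 0.0681 to 0.107) and that of Ifit3 without bulk brain replicate 3, 4 or 5 (0.0569 to 0.064). Ifit2 also lost it with median-of-ratios or library-size scaling, with no filter, with DESeq2 and against bulk brain replicates 3 to 5 alone (adjusted p = 0.0632 to 0.152), and Ifit3 with library-size scaling, with no filter and against bulk brain replicates 1 and 2 alone (0.0539 to 0.251). Ifit3 and Ifit3b are near-identical copies that may share reads.

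The ISG15 system attaches a ubiquitin-like tag, the product of Isg15, to proteins. Herc6 encodes its ligase in mice and Usp18 the protease that removes it and also dampens receptor signalling. Isg15 (ENSMUSG00000035692, chromosome 4, 156283912 to 156285253, minus strand, GRCm39) stood at 2.98, 2.79, 6.59, 3.70 and 3.42 CPM in microglia and at 1.67, 3.18, 1.06, 0.921 and 0.936 CPM in bulk brain. Bulk brain replicate 2 lay above the lowest microglia libraries, and the log2 difference was 1.32 ± 0.40 (edgeR adjusted p = 0.00931), or 0.63 (adjusted p = 0.187) against bulk brain replicates 1 and 2 alone. Usp18 (2.75 ± 0.32) and Herc6 (2.93 ± 0.20) differed by more. Stat2, the pathway's own transcription factor among these genes, gave 70.4, 70.7, 89.9, 71.8 and 68.8 CPM against 31.6, 29.1, 36.6, 33.9 and 36.9 CPM (1.15 ± 0.11, edgeR adjusted p = 1.3e-06), without overlap.

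The guanylate-binding proteins, GTPases that attack the vacuoles of intracellular pathogens and respond to interferon gamma as well, were higher by 1.37 (Gbp2), 2.75 (Gbp3) and 4.05 (Gbp7). Gbp7 gave 71.8, 74.1, 76.6, 76.2 and 73.0 CPM in microglia and 2.30, 2.57, 5.90, 6.18 and 5.51 CPM in bulk brain, and against bulk brain replicates 1 and 2 alone its difference was 4.85. Among the remaining genes, Bst2 encodes tetherin, which holds budding virus at the cell surface, and stood at 48.2, 54.6, 69.9, 56.7 and 46.8 CPM against 3.61, 4.99, 2.11, 3.18 and 2.23 CPM (log2 difference 4.09 ± 0.25, edgeR adjusted p = 2.0e-08). Lgals3bp encodes a secreted glycoprotein that binds galectins, and gave 166, 186, 249, 176 and 159 CPM against 16.5, 17.4, 11.6, 12.7 and 11.5 CPM (3.75 ± 0.18). Neither gene's groups overlapped.

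Ifi27, which encodes a small mitochondrial membrane protein, gave 86.4, 95.3, 90.4, 84.0 and 75.3 CPM in microglia and 37.4, 47.1, 19.5, 17.3 and 19.9 CPM in bulk brain, where replicates 1 and 2 were higher than replicates 3 to 5. Its log2 difference of 1.61 ± 0.27 was 0.96 against replicates 1 and 2 alone. Its neighbour Ifi27l2a was higher by 3.07 ± 0.30, at 4.69, 4.19, 6.28, 3.66 and 4.34 CPM against 0.767, 0.577, 0.255, 0.653 and 0.468 CPM. Ifi35 (3.48), Rtp4 (2.59) and Xaf1 (2.49) were higher too, and the Rtp4 locus overlaps Masp1 on the other strand by 525 bases, where reads cannot be told apart either. Ifi44, the gene with the lowest count in microglia, stood at 0.517, 0.970, 2.04, 1.19 and 0.5002 CPM against 0.876, 0.231, 0.619, 0.832 and 0.440 CPM and did not pass the threshold (0.80 ± 0.48, edgeR adjusted p = 0.142).

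**Figure D2:**
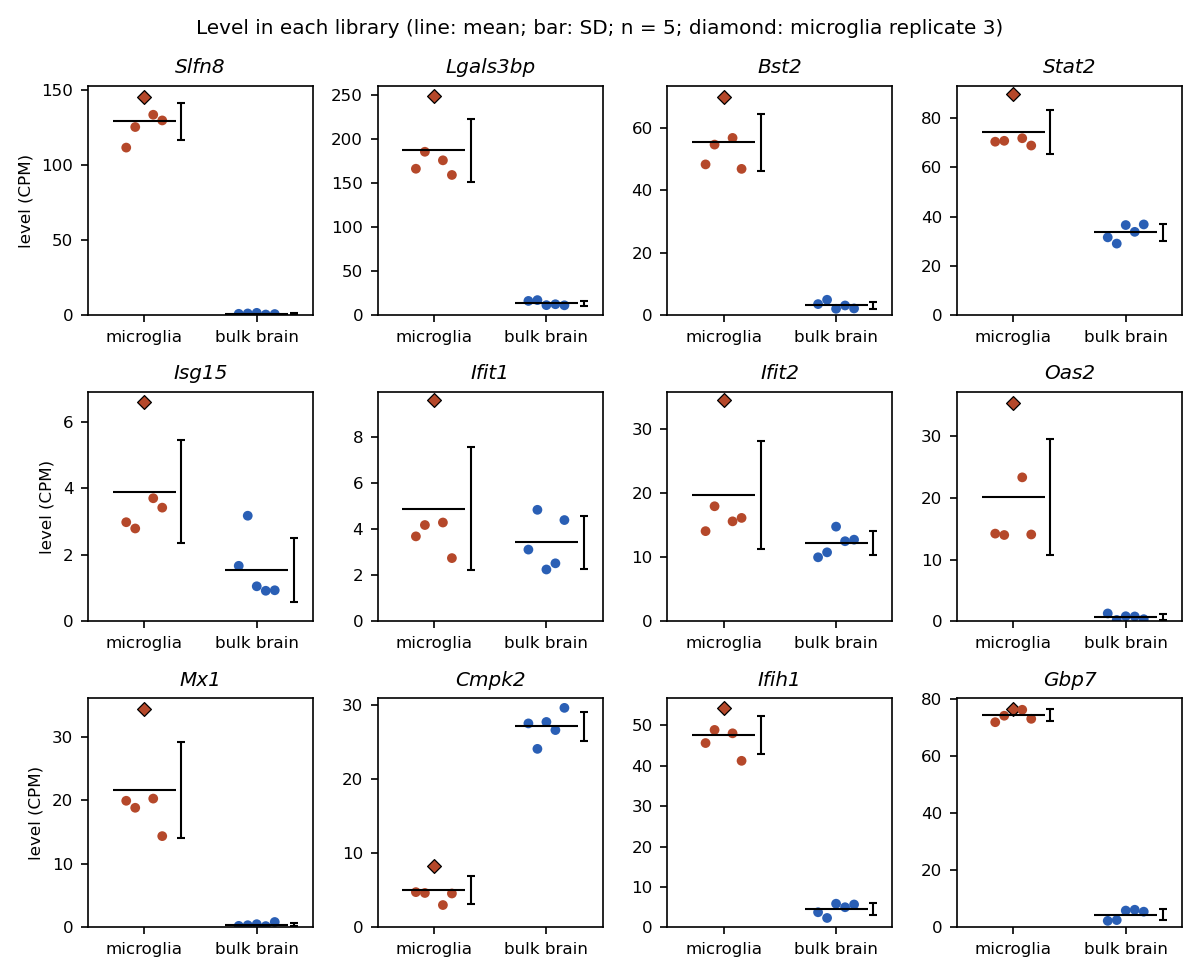
Level in CPM of 12 of the genes in each of the 5 microglia and 5 bulk brain libraries, on linear axes from 0, with the mean (line) and SD (bar). Slfn8, Mx1 and Oas2 are near 0 in bulk brain, Ifit1, Ifit2 and Isg15 overlap between groups, Cmpk2 is lower in microglia, and microglia replicate 3 (diamond) is the highest microglia library in each panel.

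Levels of different genes were compared per gene length, as TPM computed here from the counts and the gene lengths of the table. In microglia, 4 of the 45 genes exceeded 100 TPM. These were Lgals3bp at 241 ± 45.4 TPM (SD, n = 5), Bst2 at 224 ± 36.9 TPM, Ifi27 at 216 ± 15.4 TPM and Slfn8 at 116 ± 11.3 TPM, and Parp12 followed at 94.5 ± 8.59 TPM. The first 3 overlapped within their SDs, and Slfn8 lay below them. Lower down stood Isg15 at 20.4 ± 8.16 TPM, Ifit1 at 6.78 ± 3.73 TPM and Oas3 at 1.31 ± 0.862 TPM, while 11 genes stayed under 10 TPM. In bulk brain, 37 genes stayed under 10 TPM and 5 exceeded 20 TPM, namely Ifi27 (78.1 ± 27.8 TPM), Cmpk2 (27.6 ± 4.38 TPM), Stat2 (24.1 ± 4.58 TPM), Ifit3 (20.3 ± 2.10 TPM) and Lgals3bp (20.3 ± 2.197 TPM). The median gene of the set stood at 21.4 TPM in microglia and 3.33 TPM in bulk brain, where the median of all genes tested was 9.93 and 14.5 TPM.

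**Figure D3:**
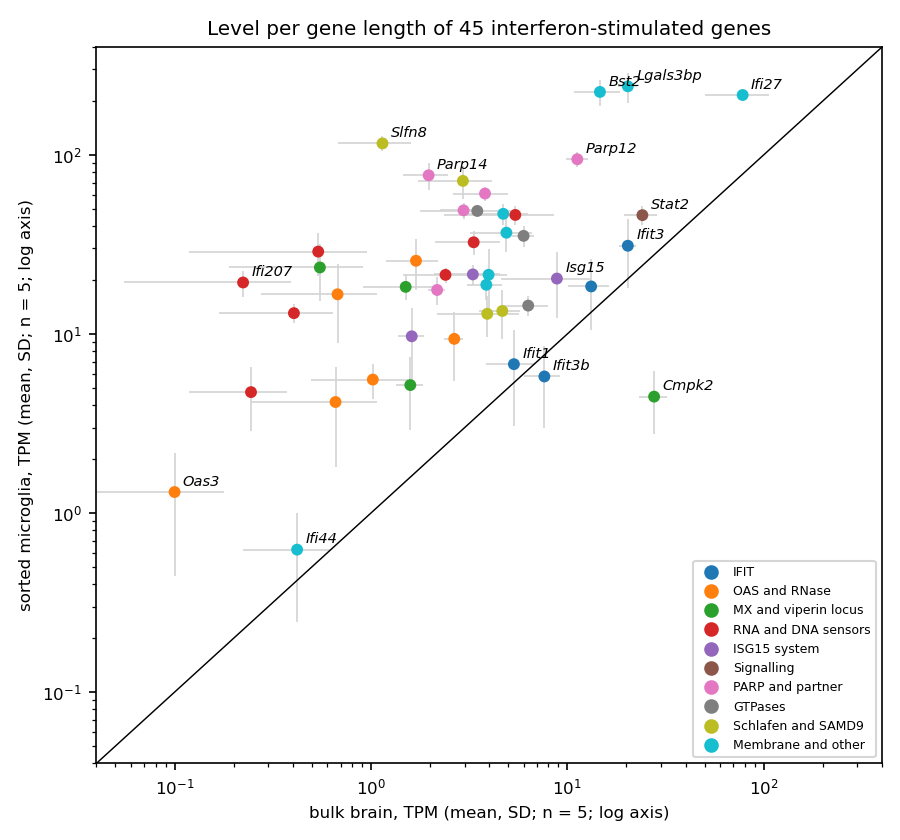
Level per gene length (TPM) in bulk brain (x axis) and sorted microglia (y axis), both log axes, as means with SD of 5 libraries each; the line marks equal levels. Lgals3bp, Bst2 and Ifi27 are the highest in microglia, Ifit3b and Cmpk2 lie below the line, and Slfn8 and Ifi207 lie far above it.

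Among the 5 microglia libraries, replicate 3 was the high one for most interferon-stimulated genes. Of the 44 genes with a mean of at least 50 counts in microglia, 39 had their highest level in replicate 3, where 19.1% of the 11910 genes with that mean did. With Ifi44, which fell short of 50 counts, the number was 40 of 45, and none had its lowest level there. The 5 exceptions were Isg20 and Ifi27, highest in replicate 2, and Ifi207, Herc6 and Gbp3, highest in replicate 4. Replicate 5 held the lowest level of 23 of the 44 genes, where it did for 25.5% of all genes with at least 50 counts. Replicate 3 was singled out after its values were seen, so the counts are a description with no test.

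In replicate 3 the median gene stood at 1.43 times the mean of the other 4 microglia libraries, with a range of 1.04 (Gbp7) to 2.57 (Ifit1). The median over all genes with at least 50 counts was 0.99. A ratio over 2 was found for 9 of the 44 genes (0.168% of all genes), and a level more than 25% above the mean of the others for 30 (4.28% of all genes). For replicates 1, 2, 4 and 5 set against their own 4 others, 1, 2, 2 and 0 genes were more than 25% higher, against 4.23%, 7.36%, 4.3% and 6.08% of all genes. By role, the median ratio in replicate 3, with its range, was 2.13 (1.08 to 2.49) for the OAS and RNase genes, 2.07 (1.83 to 2.57) for the IFIT genes, 2.05 (1.11 to 2.12) for the ISG15 system and 1.91 (1.32 to 2.09) for the MX and viperin genes. It was 1.46 (1.16 to 1.65) for the Schlafen group, 1.36 (1.06 to 1.97) for the membrane and other genes and 1.23 (1.16 to 1.42) for the PARP group. The sensors had 1.21 (1.18 to 1.83) and the guanylate-binding proteins 1.06 (1.04 to 1.28), and Stat2 stood at 1.28. The ranges of most roles overlapped, and differences between roles were not tested. Cmpk2, lower in microglia than in tissue, had a ratio of 1.95, close to that of its neighbour Rsad2 (2.09). Genes with and without the response element in their promoter had median ratios of 1.33 (n = 19) and 1.45 (n = 15), with overlapping ranges.

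**Figure D4:**
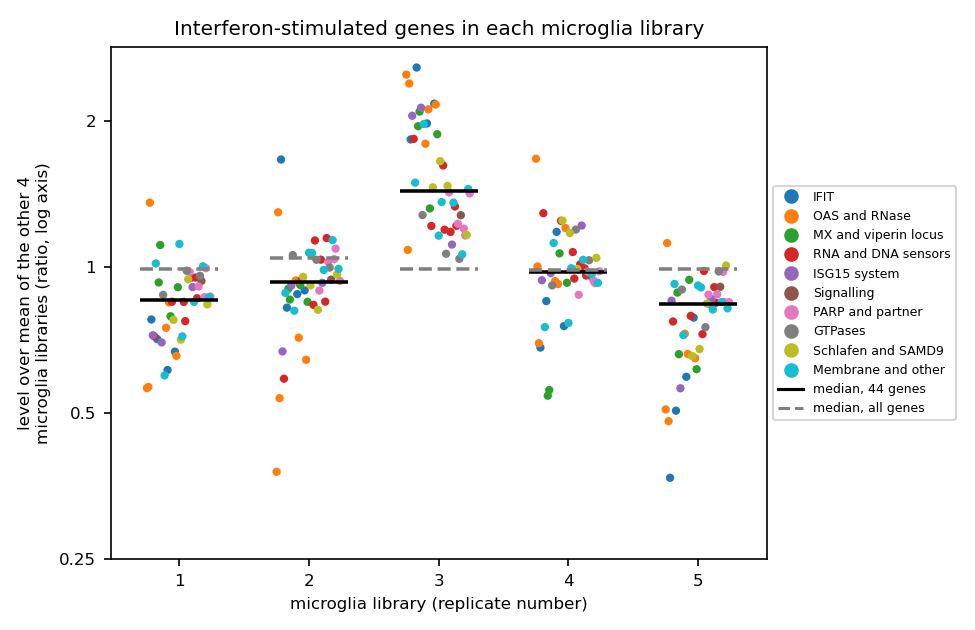
Level of each of the 44 genes with at least 50 counts in each microglia library, divided by its mean in the other 4 (log axis), with points coloured by role, the median of the set (solid) and of all such genes (dashed). In replicate 3 the set's median is 1.43 against 0.99 for all genes, with OAS, IFIT and ISG15-system genes at the top.

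Summed over the 45 genes, levels were 1582, 1716, 2191, 1736 and 1539 CPM in microglia replicates 1 to 5 and 231 to 243 CPM in bulk brain. Without replicate 3 the microglia mean was 1644 ± 97.5 CPM (SD, n = 4), 6.98 times the bulk brain mean, and with it 1753 ± 259 CPM (n = 5), 7.44 times. Parp14, Lgals3bp, Slfn8 and Parp12 made up 35.03% of the microglial sum, a share that also grows with gene length. Without replicate 3 all 41 genes called higher were still called, and no fold change moved by more than 1.30 times. Replicate 3 also held the highest sum of the microglia markers (35430.3 CPM, against 34123 to 35385 CPM). Its sums of border-associated macrophage (507 CPM), neutrophil (13.1 CPM), endothelial (77.1 CPM) and immediate early genes (23469.9 CPM) lay inside the range of the other 4 libraries. Single genes varied, and with at least 50 counts, replicate 3 was highest for 2 of 8 border-associated macrophage genes. It was highest for 1 of 2 neutrophil, 1 of 7 endothelial and 0 of 15 immediate early genes, against 19.1% of all genes. Its monocyte (24.4 CPM), neuronal (4.39 CPM) and astrocyte sums (131 CPM) were the lowest of the 5.

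The coefficient of variation over the 5 microglia libraries had a median of 19.5% for the 44 genes and 8.23% for all genes with at least 50 counts, and without replicate 3 these were 12.7% and 7.82%. The spread exceeded counting error for 44 of the 45 genes (chi-square test of the 5 counts, Benjamini-Hochberg adjusted p under 0.05), where it did for 75.2% of all genes, and without replicate 3 for 39 genes and 65% of all. The gene within counting error was Gbp7, with a coefficient of variation of 2.74%, the smallest of the set, followed by Ifi27 (8.68%) and Slfn8 (9.51%). Among genes with at least 50 counts, the largest were those of Oas3 (65.6%), Oasl1 (56.4%), Ifit1 (54.9%), Ifit3b (49.7%) and Oas2 (46.5%), and Ifi44, with fewer counts, had 60.5%. For Ifit1 it was 18.9% without replicate 3, and for Stat2 it went from 11.8% to 1.74%, whereas Ifit3b stayed at 51.3% and Oas3 at 61.4%.

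Genes of the pathway itself were mostly higher in microglia. Of a list of 36 genes for ligands, receptors, kinases, transcription factors, sensors, adaptors and inhibitors, 31 were tested. Of these, 29 were higher in microglia (all genes 37.2%), 0 were lower (all genes 43.9%) and 2 (Traf3 and Ikbke) did not pass the threshold. The median log2 difference of the 31 was 2.96. The receptor genes Ifnar1 and Ifnar2 stood at 157 ± 6.73 and 125 ± 4.83 CPM in microglia against 41.3 ± 6.02 and 9.41 ± 1.93 CPM in bulk brain (SD, n = 5 each; log2 differences 1.93 ± 0.11 and 3.73 ± 0.14). Irf9, the DNA-binding partner of STAT2, was higher by 2.78 ± 0.13. Irf7, the factor that amplifies interferon production, was higher by 2.98 ± 0.28, at 12.1, 10.1, 20.7, 13.01 and 8.71 CPM in microglia against 1.94, 2.08, 1.09, 1.60 and 1.46 CPM. Of the ligand genes, Ifna1, Ifna2, Ifna4 and Ifna5 had 0 counts in every library. Ifnb1 had 17 counts in microglia, 4 in replicate 1, 8 in replicate 3 and 5 in replicate 4, and 0 in bulk brain, too few to be tested.

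The median ratio of microglia replicate 3 to the other 4 libraries was 1.03 over the 30 pathway genes with at least 50 counts. Their highest level lay there for 12, against 19.1% of all genes with at least 50 counts. Irf7 had a ratio of 1.89 and Irf9 of 1.17, while Ifnar1 stood at 0.91 and Ifnar2 at 0.98. Of 54 further interferon-stimulated genes listed, 53 were found and 49 tested, with a median log2 difference of 3.67. Of the 49, 42 were higher in microglia (all genes 37.2%) and 3 did not pass the threshold (Gbp6, Slfn3 and Ifitm2). Lower were 4, Ifit1bl1, Ifit1bl2, Ifitm1 and Adar (all genes 43.9%). The highest level in replicate 3 was found for 30 of the 42 with at least 50 counts, against 19.1% of all such genes. The median ratio of the 42 was 1.19, and the largest were those of Oas1g (2.84), a close copy of Oas1a, and Ifi211 (2.03).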

How the data were processed

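Poly-A selected RNA-seq libraries of 5 sorted microglia and 5 bulk brain samples were used, and per the submitters' processing notes CASAVA, HISAT2 2.2.1, featureCounts 2.0 and the build GRCm39 (mm39) were used. Annotation release, strand setting and treatment of reads with several positions: not given in the sources used here. Second strands were made with dTTP per the labels' protocols, so the libraries keep no strand mark. The values the authors deposited are raw, unscaled counts per gene, and the same table lists gene lengths and coordinates, per the file headers. All 10 value columns were mapped to samples.

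Genes kept by filterByExpr (18969) entered edgeR 4.0.16 under R 4.3.3 (TMM scaling, quasi-likelihood test), in 1 fit of all 10 libraries by group; limma 3.58.1 served an alternative, and p-values were adjusted by Benjamini-Hochberg over all genes tested. SEs were derived as the absolute log2 difference over the root of F. Spread among microglia was compared with counting error by a chi-square test of each gene's 5 counts. TPM were computed from counts and gene lengths. Levels, motifs and plots used Python 3.11.15, pandas 2.3.3 and matplotlib 3.10.9. Both tests were tested on simulated data, where the genes changed for the edgeR test were few and all raised in microglia. Here 37.2% of genes were called higher and 43.9% lower, so the simulation cannot show how the scaling behaves on these data. Same-numbered microglia and bulk brain libraries did not deviate together, so the numbers were not treated as pairs. Each library was counted as 1 sample. Replicates differed by more than counting noise (mean chi-square per degree of freedom at least 5.58), which does not show that they are separate animals.

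The 45 genes, the other lists and the tests were chosen with earlier results of these data known. Genes described in full were the 5 with the largest log2 difference, those not higher in microglia, the 5 with the highest TPM, the 5 with the largest and 3 with the smallest coefficient of variation, and a fixed set around Isg15, Stat2 and the RNA sensors; others were added after their values were seen, and 1 pathway gene that this rule names is not reported here. Alternatives covered scaling, low-count filters, DESeq2 1.42.0, limma-voom, the replicate number as a block, each library left out in turn, and bulk brain replicates 3 to 5 alone; bulk brain replicates 1 and 2 alone and a minimum expected count of 5 were chosen after seeing the data.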

Additional observations from a re-analysis of the deposited data

Results flagged for a closer look

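In groups of 5, a library was singled out where its gap to the nearest other library passed Dixon's critical value as a share of the group's range; chance alone does so for about 1 in 20 groups. In microglia this held for 8 of the 45 genes, in each case with replicate 3 high: Ifit1 with a gap of 0.774 of the range, Ifit2 with a gap of 0.810 of the range, Oas1a with a gap of 0.769 of the range, Oasl2 with a gap of 0.777 of the range, Isg15 with a gap of 0.761 of the range, Stat2 with a gap of 0.860 of the range, Parp14 with a gap of 0.746 of the range and Sp100 with a gap of 0.801. Among all 11910 genes with a mean of at least 50 counts in microglia, 5.52% had such a library and 0.521% had replicate 3 high. Stat2 stood at 89.9 CPM in that library against 68.8 to 71.8 CPM in the others. In bulk brain, replicate 2 stood apart for Rtp4 (3.35 CPM against 1.51 to 1.999 CPM, a gap of 0.736 of the range).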

How the results depend on the processing

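Over the 20 alternatives, 39 to 41 of the 45 genes were higher, 1 was lower in each and 37 to 39 were at least 2-fold higher. Groups that did not overlap were found for 38 to 41. Under the main settings, 37.2% of all genes tested were higher, 43.9% lower and 27.8% at least 2-fold higher. Microglia lay wholly above bulk brain for 34.2% of all genes and wholly below for 40.5%. 42 genes kept their direction and side of the threshold in every alternative run, and no gene reversed. The call of Ifit2 was lost in 9 alternatives (0.40 to 0.85 over all of them, edgeR, DESeq2 or limma adjusted p = 0.0119 to 0.152), that of Ifit3 in 6 (0.45 to 0.93, adjusted p = 0.00757 to 0.251) and that of Isg15 in 1 (0.63 to 1.85, adjusted p = 2.1e-04 to 0.187); the cause was not tested. Against bulk brain replicates 1 and 2 alone, the fold change of 7 genes (Eif2ak2, Gbp7, Ifi204, Ifi27, Isg15, Oas3, Oasl1) moved by over 1.5 times, and against replicates 3 to 5 alone that of 3. With the replicate number as a block, 41 genes were higher, 1 was lower and 39 were at least 2-fold higher, so the block changed no call; same-numbered libraries correlated by -0.02 to 0.01 in their deviations from the group means, which gives no sign of pairing. Over all genes, the median log2 difference stood at -0.14, and -0.31 with median-of-ratios and -0.33 with library-size scaling, and the calls of Ifit2 and Ifit3 moved with scaling. Spread beyond counting error was found for 39 to 44 genes over its alternatives, the lowest without microglia replicate 3, and for 64.7% to 77.7% of all genes. Depth limits Ifi44, Oas3 and Ifnb1, with a mean of 26.6, 63.8 and 3.40 counts per microglia library.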

Other observations

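Ranked by the ratio of microglia replicate 3 to the other 4 microglia libraries, the 50 highest of 11910 genes with at least 50 counts held 16 of the 45 interferon-stimulated genes, 3 of the further interferon-stimulated genes listed and 1 pathway gene, Irf7. The highest ratio of all was that of the haemoglobin gene Hbb-bs (2.85). All of these 50 had ratios of at least 1.71. The inhibitor gene Socs1, itself an interferon target, had its lowest level in replicate 3, with a ratio of 0.58 and levels of 7.75, 8.84, 3.93, 4.30 and 6.29 CPM in microglia replicates 1 to 5. Cxcl10, a chemokine gene induced by interferon, stood at 10.97, 12.2, 13.9, 11.02 and 9.55 CPM in microglia and 0.329, 0.577, 0.255, 0.178 and 0.220 CPM in bulk brain, with no overlap. Ifitm3, which encodes a membrane protein that blocks viral entry, stood at 11.2, 8.49, 17.7, 12.3 and 11.96 CPM in microglia, again with replicate 3 highest.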
